A study of Mus musculus with 13 samples.

Results

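The genes described here are 10 genes of the cartilage extracellular matrix and its regulators: the transcription factor genes Sox5 and Sox6, the aggregating proteoglycan gene Acan, the link protein gene Hapln1, the matrix adaptor genes Comp, Matn1, Matn3, Matn4 and Chad, and the joint lubricant gene Prg4. They were found as all array features that the platform annotation assigns to these symbols, which gave 14 features for the 10 genes, of 20738 genes named on the array. Sox5 had 3 features, Matn4 and Prg4 had 2 each, and the others had 1. The genes were proposed with earlier results of these arrays in view, among them the higher Col2a1 of embryonic fibroblasts and the higher Prg4 of tail tip fibroblasts, so the difference between both fibroblast types, and the differences of Prg4 from tail tip fibroblasts, are given without a test.

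Gene expression was measured in mouse cells on 13 Agilent arrays with 1 colour in 7 groups. Mouse embryonic fibroblasts (MEF, empty vector, wild type, 2 arrays) and tail tip fibroblasts (TTF, tdTomato, wild type, 2 arrays) had been grown for 3 passages in 10% serum. Induced embryonic Sertoli cells carried Nr5a1, Wt1, Dmrt1, Gata4 and Sox9 and came from TTF (TTF-ieSC, 2 arrays) or MEF (MEF-ieSC, 1 array); they had been kept for 6 months in 2% serum with doxycycline at 2 mg/ml. The native groups, with 2 arrays each, were male gonad at 14.5 dpc, not cultured, immature Sertoli cells at 19 dpc after 3 days in culture, and mature Sertoli cells at 8 weeks after 7 days in culture, both in 10% serum. The factors, the time in culture, the serum and doxycycline all differ between fibroblasts and induced cells, so their parts cannot be told apart. The design text gives duplicates throughout, and the second MEF-ieSC array was not analysed here.

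Cartilage is held together by a gel of aggrecan, hyaluronan and link protein inside a network of collagens, and oligomeric adaptors such as COMP and the matrilins tie these components to each other. In chondrocytes SOX9 starts this program, and the closely related SoxD proteins SOX5 and SOX6, which have no activation domain of their own, bind DNA beside SOX9 and raise the output of its target genes, Col2a1 and Acan among them. SOX9 is also the central factor of Sertoli cells, the supporting cells of the testis, and is 1 of the 5 factors used for induction.

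The stretches of DNA before the starts of Acan and Sox6 are shown because these are the 2 genes that were higher in both kinds of induced cell by the widest margins. They are the 250 bases before an annotated start, 5′ to 3′ on the gene's strand, from RefSeq on GRCm38.p6, and capitals mark motif matches. Acan lies at chr7:79052976-79053225 on the plus strand. For Sox6, which has 6 annotated starts, the windows at chr7:116038745-116038994 and chr7:115824711-115824960 on the minus strand are given.
Acan: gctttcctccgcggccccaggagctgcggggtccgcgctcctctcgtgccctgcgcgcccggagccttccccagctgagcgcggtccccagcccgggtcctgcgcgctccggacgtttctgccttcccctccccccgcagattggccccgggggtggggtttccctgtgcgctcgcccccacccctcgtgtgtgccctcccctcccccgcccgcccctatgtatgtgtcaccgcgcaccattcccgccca
Sox6, first window: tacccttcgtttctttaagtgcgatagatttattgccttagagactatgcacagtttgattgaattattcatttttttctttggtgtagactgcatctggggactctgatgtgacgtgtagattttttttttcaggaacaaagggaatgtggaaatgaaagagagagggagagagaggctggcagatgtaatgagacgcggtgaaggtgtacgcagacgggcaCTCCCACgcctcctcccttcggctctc
Sox6, second window: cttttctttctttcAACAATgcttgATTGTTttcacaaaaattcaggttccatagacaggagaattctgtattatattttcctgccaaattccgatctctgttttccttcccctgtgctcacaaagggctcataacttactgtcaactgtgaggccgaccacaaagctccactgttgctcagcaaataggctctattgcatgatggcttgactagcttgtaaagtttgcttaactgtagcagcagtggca

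Simple motif letters were searched on both strands: AACAAT for SOX factors, AGATAA or TGATAA for GATA factors, AAGGTCA for NR5A1, GTGGGAG for WT1 and ACATTGT for DMRT1, whose last letters overlap the reverse of the SOX motif. The Acan window, with a GC content of 74.4% against a median of 52.4% over the 32851 windows of the table, held no match. The first Sox6 window held 1 WT1 match, 27 to 21 bases before the start. The second held 2 SOX matches in opposite orientation, 236 to 231 and 225 to 220 bases before the start. Of all windows, 9.42% held a SOX match, 16.6% a GATA match, 4.08% an NR5A1 match, 8.25% a WT1 match and 2.56% a DMRT1 match. Among the other Sox6 starts, 1 had an NR5A1 match 75 to 69 bases before it, 1 had an NR5A1 and a GATA match, and the rest held none. No other Sox6 window held a SOX match. The shares above are per window, and Sox6, with more annotated starts than Acan, had more chances of a match. Windows were matched for 8 of the 10 genes, all but Comp and Prg4. One start of Matn4 and the start of Matn1 held 1 GATA match each, and those of Sox5, Hapln1, Matn3 and Chad held none. Which start is used in these cells was not measured.

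Values are deposited log2 signals, on which every array has the same distribution and a median of 7.488. Background and detection are not recorded, so a value near or under that median is dim by rank, and differences from it understate or overstate the change by an unknown amount. The replicate arrays of a group lay 0.167 (mature Sertoli) to 0.31 (MEF) apart, as the root mean square log2 difference over the 16658 genes tested. The labels were checked against cell type markers. All 7 fibroblast markers were above the median in both fibroblast types, with array means of 15.80 in MEF and 16.36 to 16.42 in TTF, against 10.69 to 10.76 in TTF-ieSC and 10.71 in MEF-ieSC, where Thy1 and Lox were not above it. All 7 fibroblast markers were also above the median in the gonad and Sertoli samples, with array means of 13.74 to 14.94. All 12 Sertoli cell markers were above the median in gonad and immature Sertoli cells, and 11 in mature ones. In each kind of induced cell 9 were, without Amh, Gata4 and Fshr, against 8 in MEF and 5 in TTF. By this count the induced cells lay close to MEF. The lowest array means of the list were 12.11 in TTF-ieSC and 11.80 in MEF-ieSC, against 8.88 in MEF and 7.75 in TTF. Wt1 and Gata4 on the list are also induction factors. The mature Sertoli arrays also had all 10 spermatid and meiotic markers above the median, with array means of 10.52 to 10.55 against 8.02 to 8.03 in the immature ones.

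**Figure D1:**
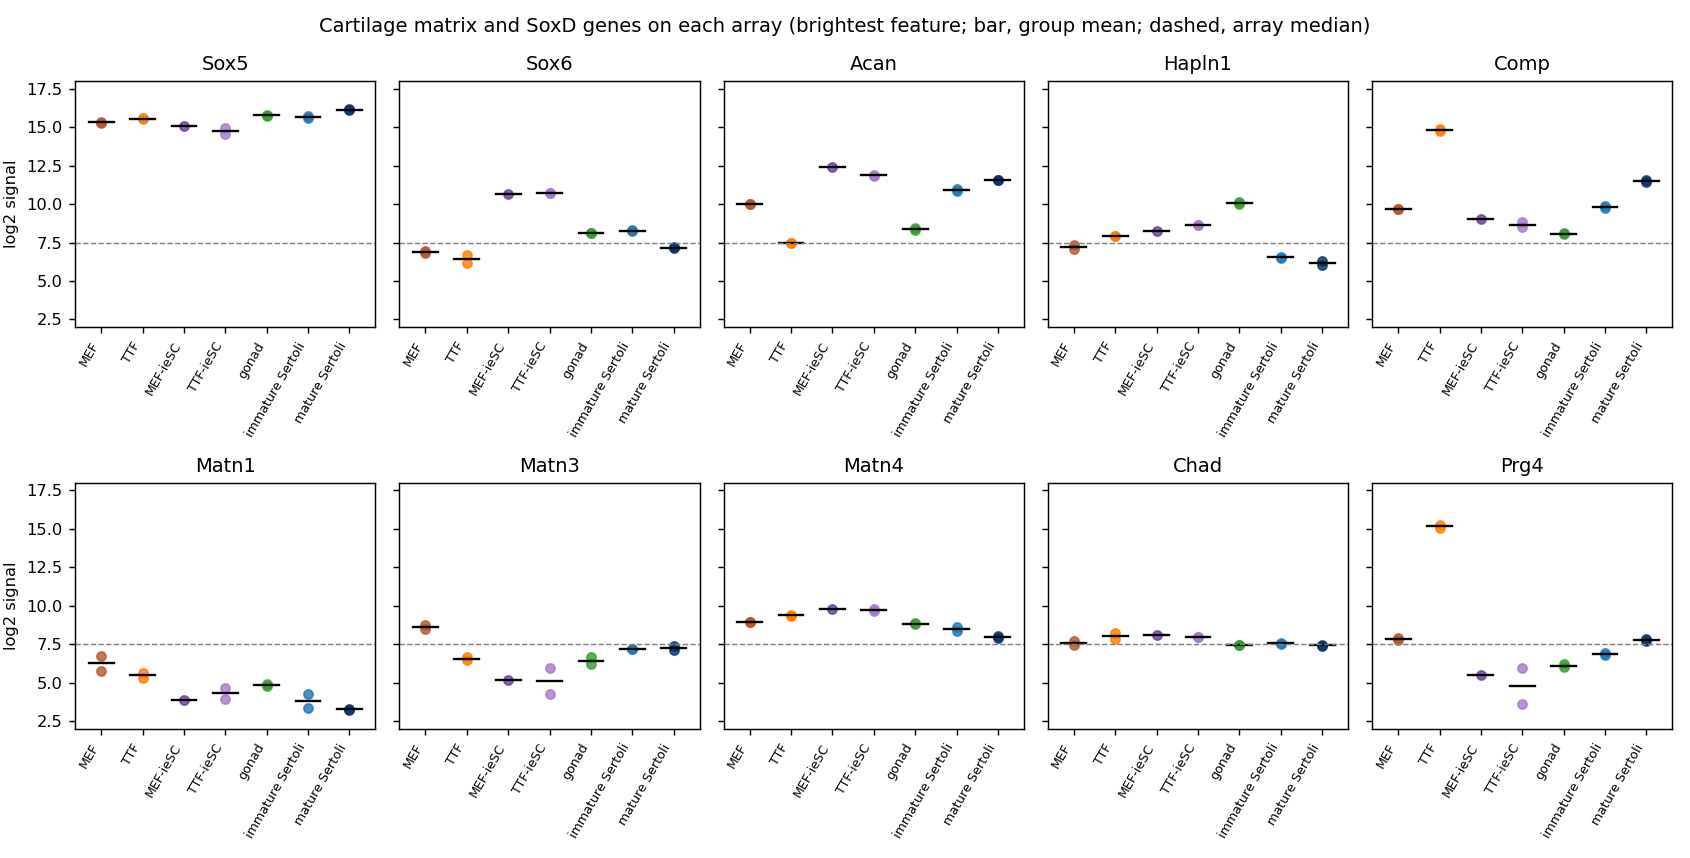
Log2 signal (vertical axis) of the brightest feature of each of the 10 genes on the 13 arrays, by group; points are arrays, bars group means and the dashed line the array median of 7.488. Sox6 and Acan are highest in the induced cells, Comp and Prg4 in TTF, and Hapln1 in gonad, while Matn1 lies below the line on every array.

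Sox6 was high in both kinds of induced cell and at most near the array median in the fibroblasts. Its signal was 10.71 and 10.72 in TTF-ieSC and 10.64 in MEF-ieSC, against 6.16 and 6.70 in TTF and 6.96 and 6.83 in MEF. The native groups lay between, with 8.13 and 8.14 in gonad and 8.30 and 8.26 in immature Sertoli cells, and mature Sertoli cells were lower at 7.13 and 7.19. No neighbouring groups overlapped in the order from TTF-ieSC down to TTF. Sox6 rose by 4.28 ± 0.14 in TTF-ieSC against TTF (log2 difference ± SE, adjusted p = 1.31e-08) and by 3.74 ± 0.18 in MEF-ieSC against MEF (adjusted p = 2e-07). The rises did not differ at the threshold (0.54 ± 0.23, adjusted p = 0.0756), although they did without TTF replicate 2, at 0.81 (adjusted p = 0.00051). Both kinds of induced cell exceeded immature Sertoli cells, TTF-ieSC by 2.43 ± 0.14 (adjusted p = 6.54e-07) and MEF-ieSC by 2.36 ± 0.18 (adjusted p = 4.03e-06). Between the native cells Sox6 fell by 1.11 ± 0.14 from immature to mature Sertoli cells (adjusted p = 0.000162). In samples of many cells such as these, fewer cells of a type and less RNA per cell cannot be told apart. No source used here says whether arrays of a group came from separate cultures or animals, so errors and p-values here reflect the scatter of arrays alone, and that scatter may be technical.

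Sox5, the partner of Sox6, had features that did not run the same way, and no single direction is given for it. The brightest feature, annotated through an expressed sequence tag, read 15.27 and 15.34 in MEF, 15.59 and 15.50 in TTF, 14.92 and 14.53 in TTF-ieSC and 15.08 in MEF-ieSC. In native samples it read 15.81 and 15.75 in gonad, 15.71 and 15.62 in immature and 16.16 and 16.09 in mature Sertoli cells. It is thus bright everywhere, within a range of 1.40 between group means, and lowest in induced cells. By that feature Sox5 fell by 0.82 ± 0.11 in TTF-ieSC (adjusted p = 0.000172), and the difference in MEF-ieSC was -0.23 ± 0.14 (adjusted p = 0.178).

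The Sox5 feature annotated through a RefSeq transcript was dim, and higher in induced cells than in their fibroblasts. It read 5.58 and 5.80 in TTF and 7.49 and 7.53 in TTF-ieSC, and 7.08 and 6.52 in MEF against 7.42 in MEF-ieSC. Only 3 of the 13 arrays exceeded the median, both of mature Sertoli cells (8.01 and 8.07) and 1 of TTF-ieSC. In a fit over all array features that passed the filter, named or not, it rose by 1.82 ± 0.16 in TTF-ieSC (adjusted p = 1.27e-05). In MEF-ieSC it rose by 0.62 ± 0.20 in that fit (adjusted p = 0.026). The remaining feature, annotated through a cDNA clone, lay between 4.16 and 7.26 and above the median on 0 arrays, and was not tested. Among the tested comparisons, both features passed in the same direction only in mature against immature Sertoli cells, with rises of 0.46 ± 0.11 (adjusted p = 0.00769) and 1.28 ± 0.16 (adjusted p = 0.000187) in that fit. The RefSeq feature had entered the test through the mature Sertoli arrays, the group in which it was high, so its rise carries that choice.

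**Figure D2:**
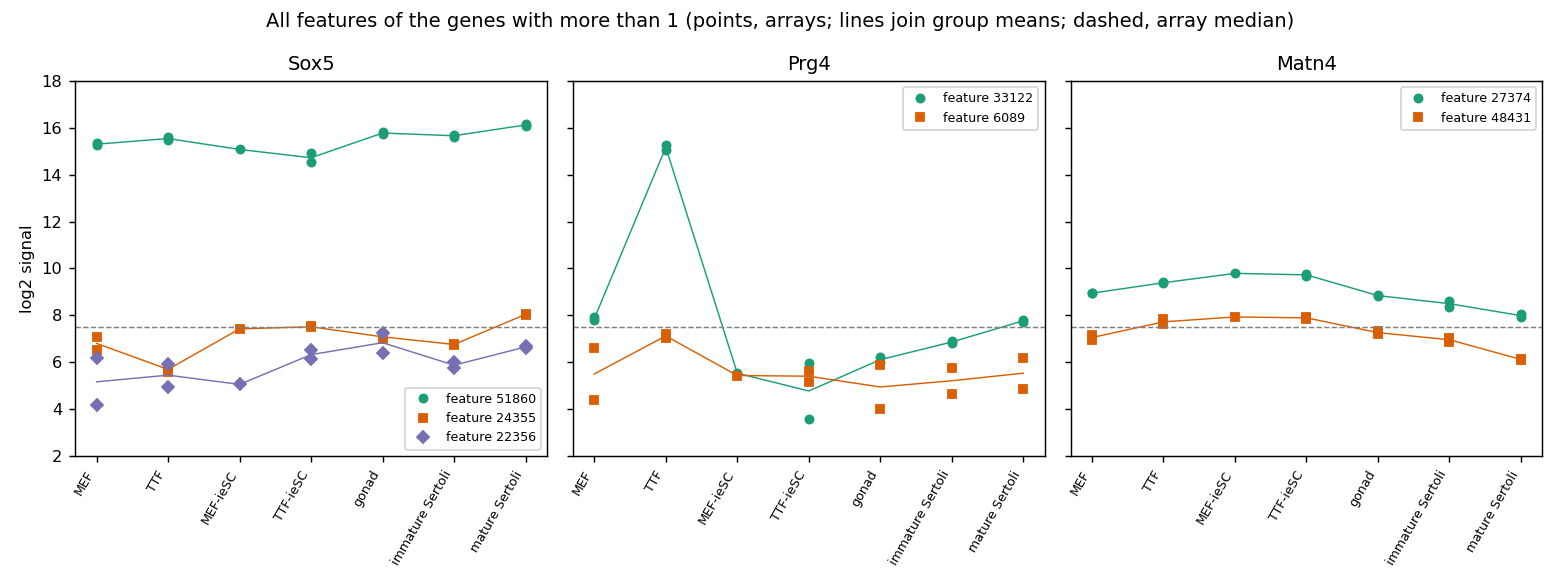
Log2 signal (vertical axis) of every feature of Sox5, Prg4 and Matn4, the genes with more than 1; points are arrays, lines join group means and the dashed line is the array median. The features of Matn4 run in parallel, whereas the Sox5 features run apart between fibroblasts and induced cells, and only 1 Prg4 feature shows the high TTF level of 15.28 and 15.06.

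Acan, the gene of aggrecan, the large proteoglycan that gives cartilage its resistance to compression, was highest in the induced cells, whose arrays lay above every native array. It read 11.90 and 11.83 in TTF-ieSC and 12.43 in MEF-ieSC. The fibroblasts differed widely at the start, with 7.45 and 7.49 in TTF, at the array median, and 10.03 and 9.99 in MEF. That contrast was in view when the genes were chosen, so a test of the difference between the inductions carries that choice. Mature Sertoli cells had 11.57 and 11.58, immature ones 10.84 and 10.98 and gonad 8.33 and 8.43. No neighbouring groups overlapped. Acan rose by 4.40 ± 0.06 in TTF-ieSC (adjusted p = 8.13e-11) and by 2.41 ± 0.08 in MEF-ieSC (adjusted p = 1.76e-08), and the rise from TTF was the larger by 1.98 ± 0.10 (adjusted p = 1.28e-06). The TTF-derived cells still ended below the MEF-derived array (-0.56 ± 0.08, adjusted p = 0.00241). That last difference had an adjusted p of 0.0811 when only those 3 arrays entered the fit.

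Acan also differed between the native groups, over which stage, time in culture and the mix of cells change together and cannot be told apart. It was 2.53 ± 0.06 higher in immature Sertoli cells than in gonad (adjusted p = 5.92e-09) and rose by a further 0.66 ± 0.06 in mature ones (adjusted p = 2.59e-05). Against immature Sertoli cells the induced cells had more Acan, by 0.95 ± 0.06 from TTF (adjusted p = 1.43e-06) and by 1.51 ± 0.08 from MEF (adjusted p = 3.55e-07). Gonad and immature Sertoli samples also differed in markers of other cells, some higher and some lower in the Sertoli samples. Peritubular smooth muscle markers had array means of 11.93 to 12.03 in gonad, 15.23 to 15.33 in immature and 15.89 to 15.94 in mature Sertoli samples. All 5 were above the median in each of these groups. In the induced cells their array means were 10.58 to 10.66 (TTF-ieSC) and 11.10 (MEF-ieSC). The part of peritubular cells in the Acan values was not tested.

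Hapln1, whose link protein locks aggrecan onto hyaluronan, was highest in gonad and not in the induced cells. Its signal was 10.02 and 10.14 in gonad, 8.66 and 8.61 in TTF-ieSC, 8.25 in MEF-ieSC, 7.90 and 7.92 in TTF and 7.05 and 7.32 in MEF. Immature Sertoli cells, at 6.58 and 6.48, and mature ones, at 6.29 and 6.07, were below the median. The groups did not overlap. Hapln1 rose by 0.72 ± 0.10 in TTF-ieSC (adjusted p = 0.000199) and by 1.07 ± 0.12 in MEF-ieSC (adjusted p = 7.74e-05), and it fell by 3.55 ± 0.10 from gonad to immature Sertoli cells (adjusted p = 1.22e-08). Markers of other cell types moved both ways over this step, in which 32.6% of all genes were called higher and 37.9% lower. Of 5 macrophage markers 4 rose, and of 5 peritubular smooth muscle markers 5 rose. Those of the lists that follow mostly fell. The array means of 5 gonocyte markers were 13.64 to 13.71 in gonad and 10.58 to 10.64 in immature Sertoli cells, and 5 of 5 fell. Those of 4 Leydig cell markers were 15.74 to 15.76 and 12.09 to 12.17, and 4 of 4 fell. Endothelial markers had 10.85 and 8.55 to 8.88 (4 of 5 fell), and glial markers 9.16 to 9.21 and 7.99 to 8.05 (2 of 3 fell). The part of those cells in the Hapln1 values was not tested. The fall of 0.35 ± 0.10 to mature Sertoli cells (adjusted p = 0.0145) was lost without immature Sertoli replicate 1 (-0.30, adjusted p = 0.0714) or mature Sertoli replicate 2 (-0.24, adjusted p = 0.102).

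Comp, a pentameric thrombospondin family protein that binds collagens in cartilage and tendon, was dominated by its level in tail tip fibroblasts. It read 14.76 and 14.89 in TTF, against 9.67 and 9.65 in MEF, 8.48 and 8.83 in TTF-ieSC and 9.02 in MEF-ieSC. Gonad had 8.09 and 8.05, immature Sertoli cells 9.76 and 9.88 and mature ones 11.45 and 11.57. Every array was above the median and no neighbouring groups overlapped. The difference between the inductions holds the fibroblast contrast in view when the genes were chosen, so its test carries that choice. Comp fell by 6.17 ± 0.11 in TTF-ieSC (adjusted p = 2.44e-10) and by 0.64 ± 0.13 in MEF-ieSC (adjusted p = 0.00261), so the changes differed by -5.53 ± 0.17 (adjusted p = 1.13e-07). The induced cells did not differ at the threshold (-0.36 ± 0.13, adjusted p = 0.118), although without TTF-ieSC replicate 2 the difference was -0.53 (adjusted p = 0.019). Comp rose by 1.75 ± 0.11 from gonad to immature Sertoli cells (adjusted p = 1.3e-06) and by 1.69 ± 0.11 from these to mature ones (adjusted p = 2.19e-06). Stage, time in culture and the mix of cells change together over these groups and cannot be told apart. Induced cells lay below immature Sertoli cells, by -1.17 ± 0.11 from TTF (adjusted p = 1.38e-05) and -0.81 ± 0.13 from MEF (adjusted p = 0.000656). Acan and Comp thus rose together from gonad to mature Sertoli samples and moved in opposite directions in both inductions.

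Of the matrilins, adaptor proteins of the matrix filaments, the cartilage forms Matn1 and Matn3 were dim in the induced cells, and Matn4, the most widely expressed form, was slightly higher there. Matn1 was below the median on all 13 arrays, between 3.25 and 6.75, and was not tested. Matn3 read 8.48 and 8.72 in MEF, the only arrays above the median, against 6.45 and 6.69 in TTF, 4.29 and 5.95 in TTF-ieSC and 5.15 in MEF-ieSC. It therefore entered the test only through the group in which it was high, and its differences, including -3.45 ± 0.54 in MEF-ieSC against MEF (adjusted p = 0.000481), carry that choice. Native samples had 6.22 and 6.64 in gonad, 7.22 and 7.20 in immature and 7.13 and 7.39 in mature Sertoli cells. In TTF-ieSC against TTF the difference was -1.45 ± 0.44 (adjusted p = 0.0153), between groups that are both below the median, and it was lost without TTF replicate 2 (-1.33, adjusted p = 0.0684). The TTF-ieSC arrays lay 1.66 apart for Matn3, and this spread enters the SE of every comparison of the gene. Without either of them the difference of 0.78 between immature Sertoli cells and gonad passed (adjusted p = 0.00307 and 0.00305, against 0.145 with both).

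Both features of Matn4 kept nearly the same order of groups. The brighter one read 9.69 and 9.76 in TTF-ieSC and 9.79 in MEF-ieSC, against 9.42 and 9.36 in TTF and 8.95 and 8.94 in MEF. Native samples were lower, with 8.86 and 8.82 in gonad, 8.37 and 8.62 in immature and 7.93 and 8.04 in mature Sertoli cells. Matn4 rose by 0.33 ± 0.08 in TTF-ieSC (adjusted p = 0.00524) and by 0.84 ± 0.10 in MEF-ieSC (adjusted p = 8.34e-05). For the dimmer feature, between 6.08 and 7.93, these differences were 0.17 ± 0.10 (adjusted p = 0.165) and 0.88 ± 0.12 (adjusted p = 0.000298) in the fit over features. Matn4 fell by 0.34 ± 0.08 from gonad to immature Sertoli cells (adjusted p = 0.005) and by 0.51 ± 0.08 to mature ones (adjusted p = 0.000565). The dimmer feature passed in the same direction in both. Here too stage, time in culture and the mix of cells cannot be told apart.

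Chad encodes chondroadherin, a leucine-rich protein that binds collagen and cell surface integrins. Its values stayed near the array median in every group, from 7.40 in mature Sertoli cells to 8.26 in TTF, and most neighbouring groups overlapped. The difference in TTF-ieSC against TTF was -0.07 ± 0.13 (adjusted p = 0.644). It was -0.29 (adjusted p = 0.0271) without TTF replicate 1 and 0.15 (adjusted p = 0.198) without TTF replicate 2. In MEF-ieSC against MEF it was 0.50 ± 0.16 (adjusted p = 0.0228), which was lost without MEF replicate 2 (0.38, adjusted p = 0.0947). Against immature Sertoli cells the induced cells had more Chad, by 0.42 ± 0.13 from TTF (adjusted p = 0.0179) and 0.51 ± 0.16 from MEF (adjusted p = 0.0188). Those calls were lost without immature Sertoli replicate 2 (adjusted p = 0.0709 and 0.0578), and the first also without TTF-ieSC replicate 2 (0.0691).

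Prg4 encodes lubricin, the glycoprotein that coats the surfaces of joints. Its brighter feature read 15.28 and 15.06 in TTF, the level on which the gene was chosen, and 7.79 and 7.92 in MEF. In the induced cells it was below the median, at 3.59 and 5.95 in TTF-ieSC and 5.53 in MEF-ieSC. Native samples had 6.01 and 6.20 in gonad, 6.81 and 6.91 in immature and 7.82 and 7.71 in mature Sertoli cells. The difference was -10.40 ± 0.59 in TTF-ieSC against TTF, given without a test, and -2.33 ± 0.72 in MEF-ieSC against MEF (adjusted p = 0.0194). The latter was lost without MEF replicate 2 (-2.26, adjusted p = 0.0581), with array weights (adjusted p = 0.0504) and as the mean of both features (-1.20, adjusted p = 0.15). The dimmer feature was below the median on every array, and at most 7.05 and 7.19 in TTF.

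The spread of 2.36 between the TTF-ieSC arrays set the error of Prg4 in all comparisons. With both arrays the rises from gonad to immature Sertoli cells (0.75 ± 0.59, adjusted p = 0.283) and from these to mature ones (0.90 ± 0.59, adjusted p = 0.205) did not pass. Without TTF-ieSC replicate 1 the same differences had adjusted p-values of 0.000341 and 0.000142, and without TTF-ieSC replicate 2 of 0.000338 and 0.000141. Against immature Sertoli cells TTF-ieSC had less Prg4 (-2.09 ± 0.59, adjusted p = 0.011), which was lost as the mean of both features (-0.95, adjusted p = 0.15). The difference of MEF-ieSC from immature Sertoli cells (-1.33, adjusted p = 0.13) passed without TTF-ieSC replicate 1 or 2 (adjusted p = 3.96e-05 and 3.92e-05).

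**Figure D3:**
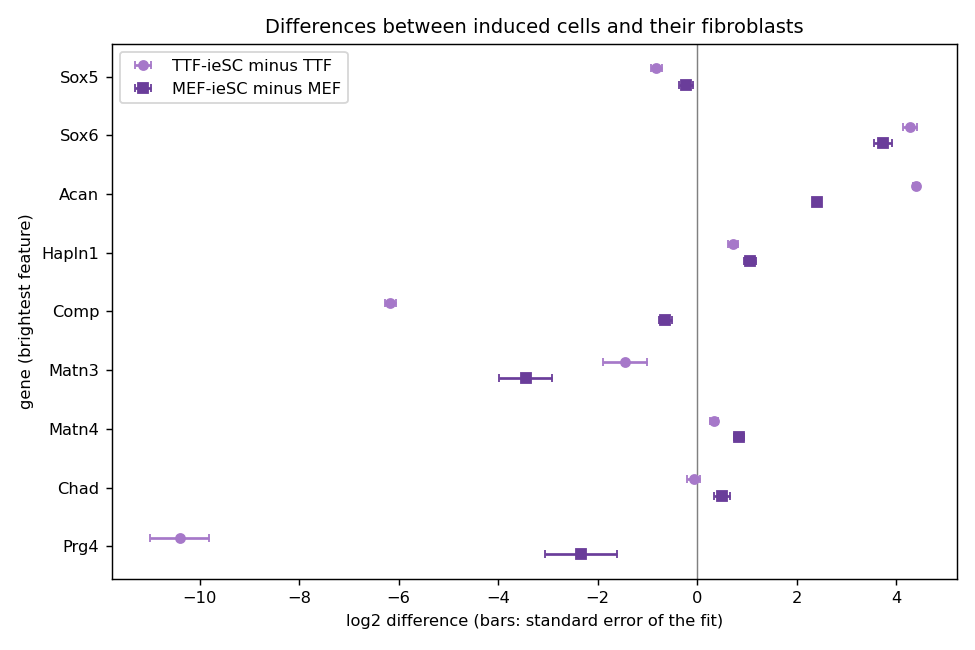
Log2 difference (horizontal axis) between induced cells and the fibroblasts they came from for the 9 tested genes; circles are TTF-ieSC minus TTF, squares MEF-ieSC minus MEF, and bars the SE of the fit. Sox6 and Acan lie to the right in both, Comp (-6.17) and Prg4 (-10.40) lie far to the left in the TTF induction only, and Sox5 is shown by its brightest feature.

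Over the 9 tested genes, 4 rose and 4 fell in TTF-ieSC against TTF, beside 39.5% of all tested genes called higher and 35.2% lower; the count holds Prg4, which was chosen on its TTF level. In MEF-ieSC against MEF 5 rose and 3 fell, beside 34.3% and 33.6%. No test of these counts was run, and nothing about the 9 genes as a set is read from them. With the RefSeq feature of Sox5 the counts were 5 and 3 in TTF-ieSC, and 6 and 3 in MEF-ieSC. The medians over the 9 genes were -0.07 and 0.50, against 0.06 and 0.01 over all genes. Both inductions share their fibroblast arrays with the fibroblast comparison in view when the genes were chosen. The genes that rose in both, Sox6, Acan, Hapln1 and Matn4, include the aggrecan core protein, its link protein and a SoxD factor, and those lower in both, Comp, Matn3 and Prg4, include 2 adaptors and the lubricant.

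With Prg4 counted, for which no test is given, the inductions differed for 7 of the 9 genes, 2 with a difference above 0 (Acan and Matn3) and 5 below it (Comp, Sox5, Matn4, Chad and Prg4), beside 28.9% and 25.2% of all genes. Each of these differences holds the fibroblast contrast in view when the genes were chosen, so nothing is read from the counts. For Matn4 the difference was -0.51 ± 0.13 (adjusted p = 0.00995). Those of Sox5 (-0.59 ± 0.18, adjusted p = 0.0222), Matn3 (2.00 ± 0.69, adjusted p = 0.0392) and Chad (-0.57 ± 0.21, adjusted p = 0.0466) were fragile. Sox5 lost its call when MEF replicate 1 was left out (adjusted p = 0.0548) and when TTF replicate 1 was (0.0575), and by its RefSeq feature the difference was 1.20 (adjusted p = 0.00439). Matn3 lost its call without either array of TTF (adjusted p = 0.088 and 0.061), gonad (0.0503 and 0.0502) or immature Sertoli cells (0.0538 and 0.0537). Chad lost its call without MEF replicate 2 (-0.45, adjusted p = 0.12), and likewise without replicate 2 of TTF (-0.35, adjusted p = 0.065) or any 1 of the TTF-ieSC or native arrays (adjusted p of 0.0599 to 0.0957).

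The 9 genes lay closer together between the induced cells than between the fibroblasts, as did all genes. Because the fibroblast contrast was in view when the 9 genes were chosen, this is a description and nothing about them is read from it. Between the fibroblasts, described without a test, the 9 genes differed by 0.24 to 7.31 in size with a median of 0.72, against a median of 0.42 over all genes. Comp (5.17 ± 0.11) and Prg4 (7.31 ± 0.59) were higher in TTF, and Acan (-2.54 ± 0.06) and Matn3 (-2.03 ± 0.44) higher in MEF. Past the threshold used elsewhere lay 5 of the 9 genes as higher and 3 as lower, beside 31.1% and 35.5% of all genes; nothing is read from these counts, since the contrast was in view when the genes were chosen. Between the induced cells the differences were 0.03 to 0.75 in size with a median of 0.35, against 0.15 over all genes. Of the 9 genes 0 were higher in TTF-ieSC and 1, Acan, was lower, beside 7.53% and 6.76%. The one MEF-ieSC array limits this comparison: Prg4 was at -1.93 (adjusted p = 0.000223) without TTF-ieSC replicate 2 and at 0.43 (adjusted p = 0.124) without TTF-ieSC replicate 1, so its direction turned. Sox5 passed without TTF-ieSC replicate 1 (-0.55, adjusted p = 0.00918), and Hapln1 (0.38) passed without either MEF array (adjusted p = 0.0472).

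Against immature Sertoli cells both kinds of induced cell had more Sox6, Acan, Hapln1, Matn4 and Chad. Hapln1 was higher by 2.10 ± 0.10 in TTF-ieSC (adjusted p = 1.76e-07) and 1.72 ± 0.12 in MEF-ieSC (adjusted p = 3.2e-06), and Matn4 by 1.23 ± 0.08 (adjusted p = 1.34e-06) and 1.29 ± 0.10 (adjusted p = 4.79e-06). In TTF-ieSC 5 of the 9 genes were higher and 4 lower, beside 37.8% and 39.0% of all genes. In MEF-ieSC 5 were higher and 3 lower, beside 34.4% and 36.2%. From gonad to immature Sertoli cells 2 rose, Acan and Comp, and 2 fell, Hapln1 and Matn4, beside 32.6% and 37.9%. From immature to mature cells 3 rose, Acan, Comp and Sox5, and 3 fell, Sox6, Matn4 and Hapln1, beside 28.9% and 39.6%.

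Genes that act with these in cartilage split by group in the inductions. The medians below stand beside 0.06 (TTF-ieSC) and 0.01 (MEF-ieSC) over all genes. The counts of this and the following lists stand beside 39.5% of all genes called higher and 35.2% lower in TTF-ieSC. In MEF-ieSC these shares were 34.3% and 33.6%. Of 8 cartilage collagens 7 rose and 1 fell in TTF-ieSC (median 4.13), and 4 rose and 3 fell in MEF-ieSC (median 1.84). Col9a3 rose by 7.94 ± 0.21 (adjusted p = 2.52e-09) and 7.16 ± 0.25 (adjusted p = 3.19e-08), and Col11a2 by 6.56 ± 0.09 (adjusted p = 7.07e-11) and 6.77 ± 0.11 (adjusted p = 4.41e-10). Col10a1, the collagen of hypertrophic chondrocytes, fell by 4.35 ± 0.25 in MEF-ieSC (adjusted p = 7.1e-07). Col2a1, the main cartilage collagen, was at 6.73 in TTF and 10.60 in TTF-ieSC, and at 15.11 in MEF and 10.93 in MEF-ieSC. Its differences of 3.87 and -4.17 are given without a test, since its fibroblast levels were in view when the genes were chosen, and it is among the collagens counted above. Between the induced cells its difference was -0.33 ± 0.18 (adjusted p = 0.265).

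Among 14 other chondrocyte genes 9 rose and 3 fell in each induction (medians 0.85 and 1.13). The growth plate receptor Fgfr3 rose by 4.25 ± 0.09 (adjusted p = 6.07e-10) and 4.22 ± 0.11 (adjusted p = 4.4e-09), and the parathyroid hormone receptor gene Pth1r by 5.08 ± 0.08 in TTF-ieSC (adjusted p = 1.19e-10). S100b, a calcium-binding protein of chondrocytes and glia, fell by 5.71 ± 0.07 there (adjusted p = 2.82e-11). Of the 8 genes fixed as chondrocyte markers, 6 were above the median in both kinds of induced cell, all but Matn1 and Matn3, with array means of 9.38 to 9.67 in TTF-ieSC and 9.54 in MEF-ieSC. MEF had 5 above it with 8.68 to 8.83, and TTF had 2 with 6.65 to 6.84. Gonad had 5 with 8.37 to 8.48, immature Sertoli cells 3 with 7.03 to 7.20 and mature ones 2 with 7.25 to 7.26. Acan, Matn1, Matn3 and Hapln1 on this list are themselves among the genes described here, and the fibroblast levels of Col2a1 were in view. These counts are thus a description, and nothing is read from them.

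Sox9 itself was lower in the induced cells, while Sox13, the remaining SoxD gene, was slightly higher. Sox9 fell by 1.52 from TTF and fell by 1.76 from MEF, to 9.79 in TTF-ieSC and 9.12 in MEF-ieSC against 13.47 in immature Sertoli cells. Which part of the transcript its features read is not given, so a transgene and the cell's own gene cannot be told apart. Sox13 rose by 0.51 (adjusted p = 0.000162) and 0.44 (adjusted p = 0.00191). Of 11 SoxD, SoxE and other chondrocyte transcription factors outside the 10 genes, 4 rose and 5 fell in TTF-ieSC and 3 rose and 6 fell in MEF-ieSC. Among them Trps1, a zinc finger repressor of the growth plate, fell by 2.55 ± 0.08 (adjusted p = 7.71e-09) and fell by 3.59 ± 0.10 (adjusted p = 6.02e-09).

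Of 7 other matrilins, thrombospondins and adaptors, the relatives of Comp and the matrilins, 6 fell and 1 rose in each induction, with medians of -7.11 and -2.92, beside 35.2% and 33.6% of all genes called lower. Thbs4, the thrombospondin closest to Comp, fell by 9.85 ± 0.09 in TTF-ieSC (adjusted p = 1.03e-11) and fell by 3.02 ± 0.11 in MEF-ieSC (adjusted p = 2.93e-08). Thbs1 fell by 7.56 ± 0.13 (adjusted p = 1.84e-10) and fell by 8.19 ± 0.16 (adjusted p = 8.45e-10). Of 5 other lecticans and link proteins, 2 rose and 1 fell in each. Hapln4, a link protein of brain matrix, rose by 1.61 ± 0.13 (adjusted p = 5.53e-06) and 1.64 ± 0.16 (adjusted p = 2.78e-05), and Vcan, the lectican of loose connective tissue, fell by 1.26 ± 0.08 (adjusted p = 6.02e-07) and fell by 1.02 ± 0.09 (adjusted p = 1.42e-05).

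Of genes that build or break down the aggrecan gel more fell than rose, beside 35.2% (TTF-ieSC) and 33.6% (MEF-ieSC) of all genes called lower. Of 16 glycosaminoglycan synthesis genes 5 rose and 9 fell in TTF-ieSC (median -1.11), and 6 rose and 9 fell in MEF-ieSC (median -0.78). Csgalnact1, which starts chondroitin sulfate chains, fell by 8.86 ± 0.11 (adjusted p = 3.34e-11) and fell by 6.59 ± 0.13 (adjusted p = 9.52e-10), and the hyaluronan synthase Has2 fell by 4.96 ± 0.08 (adjusted p = 1.87e-10) and fell by 5.07 ± 0.10 (adjusted p = 1.14e-09). Of 13 aggrecanase and turnover genes 2 rose and 10 fell in each (medians -1.79 and -0.68). Adamts5, an aggrecanase, fell by 7.17 ± 0.27 (adjusted p = 2.4e-08) and fell by 4.76 ± 0.32 (adjusted p = 2.22e-06), to 6.78 and 6.53, below the array median.

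More small leucine-rich proteoglycans and more genes of tendon and joint lining fell than rose. Of 9 of these proteoglycans 2 rose and 7 fell in TTF-ieSC (median -3.11) and 2 rose and 5 fell in MEF-ieSC (median -2.6). Ogn fell by 8.84 ± 0.20 (adjusted p = 1.04e-09) and fell by 9.33 ± 0.25 (adjusted p = 5.2e-09). Of 11 tendon and joint lining genes 3 rose and 8 fell in each, with medians of -2.56 and -2.3. Tnc, a matrix glycoprotein of tendon, fell by 7.87 ± 0.14 (adjusted p = 2.45e-10) and fell by 7.00 ± 0.17 (adjusted p = 3.37e-09). Clu, which is also a main product of Sertoli cells, rose by 5.78 ± 0.09 in TTF-ieSC (adjusted p = 9.62e-11).

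**Figure D4:**
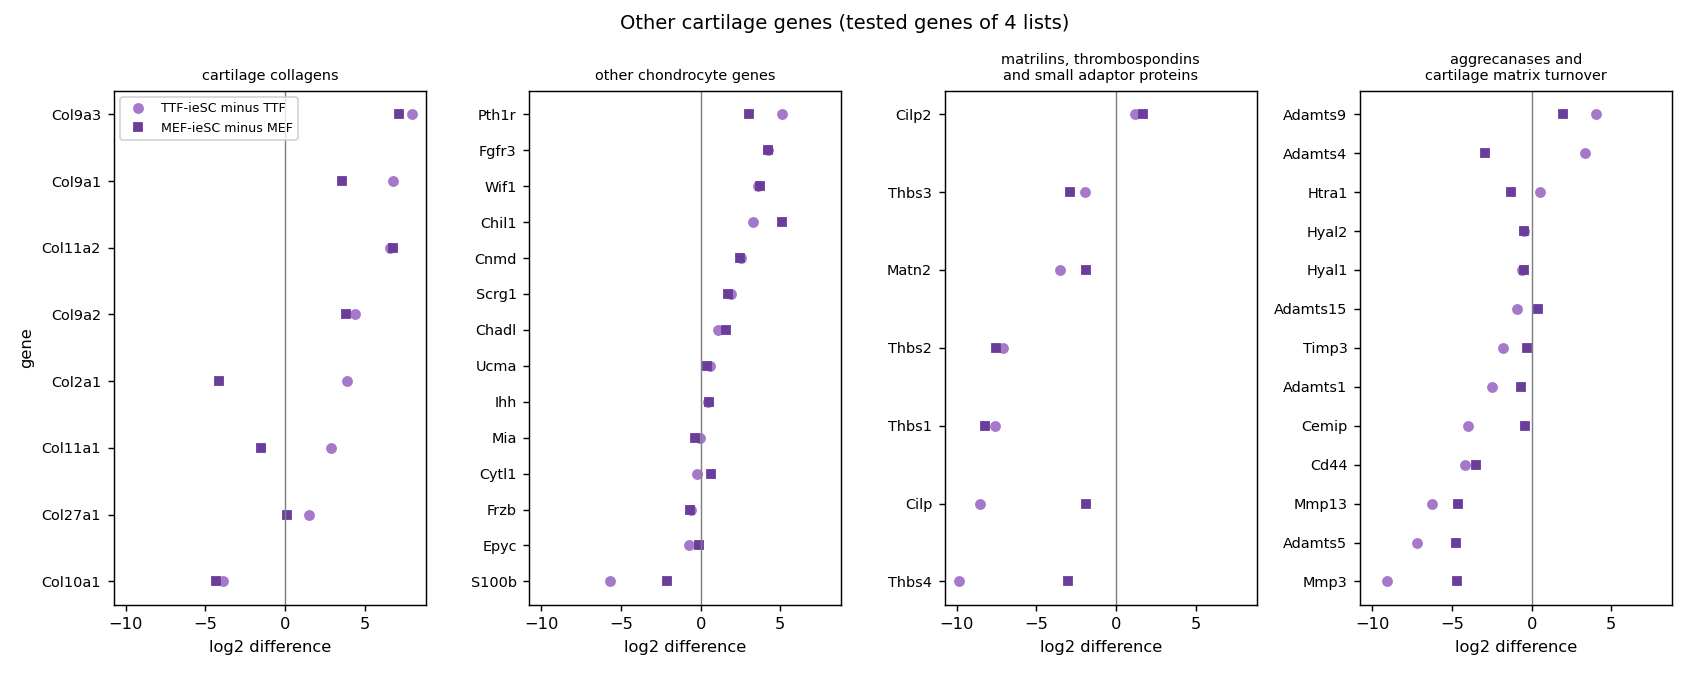
Log2 difference (horizontal axis) between induced cells and their fibroblasts for the tested genes of 4 lists that act with the 10 genes in cartilage; circles are TTF-ieSC minus TTF and squares MEF-ieSC minus MEF. Most cartilage collagens and other chondrocyte genes lie to the right, most thrombospondins and turnover genes to the left, and Col2a1 lies at 3.87 in the first and -4.17 in the second.

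The genes whose pattern over the 7 group means was nearest to each of the 9 tested ones were found by the root mean square difference of centred means over 16658 tested genes. Nearest to Acan were Sh3bgr (0.49) and the basement membrane collagen gene Col4a6 (0.52). Rhpn1 (0.26) and the neuregulin receptor gene Erbb3 (0.29) were nearest to Sox6. Hapln1 was followed most closely by Ntn3 (0.33) and Ankrd35 (0.40). For Comp, Tmem140 (0.43) and Klra2 (0.66) were nearest, and for Prg4, Cck (0.83) and Spon2 (0.88). Chad had the closest neighbours (Srrm3 and Vmn1r25, 0.05 each), and those of Matn3 were Palld (0.24) and Nuak1 (0.27). Sox5 by its brightest feature was nearest to Rab3c (0.10) and Med10 (0.13), and Matn4 to Calcoco1 and Tmem106c (0.14 each). These distances describe 7 means of 13 arrays and carry no test.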

How the data were processed

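The deposited values are log2 signal, 1 table by the authors with 62976 features and 1 distribution on every array. The submitters' processing notes name limma without a version or a step; how features were extracted and background was treated is not given in the sources used here. Features were named through the platform annotation, with symbols updated through RefSeq. A gene was represented by its brightest feature, and a gene was tested where 2 or more arrays exceeded their median (16658; 9 of the 10 genes, not Matn1).

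All 13 arrays in 7 groups entered 1 fit of limma 3.58.1 (R 4.3.3; lmFit, then eBayes), with 2.18 prior and 6 residual degrees of freedom. MEF-ieSC, with its lone array, borrows its spread from the other groups. Tests were two-sided, with Benjamini-Hochberg adjustment over all genes tested and a call at an adjusted p under 0.05. The fit was tested on simulated data. The number of arrays limits the precision.

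The genes and lists were chosen with earlier results of these data known. Of each list of related genes, those with the 3 largest called differences in either induction could be named, with Sox9, Sox13 and Col2a1 always, and for each tested gene the 2 nearest in pattern. Alternatives covered the filter, normalization, feature choice, variance model, arrays in the fit, a minimum log2 difference of 1 and leaving out each array; Sox5 by its RefSeq feature was added after seeing the data.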

Additional observations from a re-analysis of the deposited data

Results flagged for a closer look

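The change from fibroblast to induced cell differed between the TTF and MEF inductions, by a test of the difference itself (TTF induction minus MEF induction), for 6 genes: Acan (1.98), Comp (-5.53), Matn4 (-0.51), Sox5 by its brightest feature (-0.59), Matn3 (2.00) and Chad (-0.57). Matn3 entered the test only through the MEF arrays, which are a term of this difference. For Prg4 the difference of -8.07 is given without a test, since its TTF level was known when the gene was chosen. Both fibroblast types enter each of these. Each difference thus holds the fibroblast contrast that was in view when the genes were chosen, and its test carries that choice. For Acan TTF against MEF was -2.54 and TTF-ieSC against MEF-ieSC -0.56, and for Comp these were 5.17 and -0.36. The fibroblast levels of Comp, Prg4, Acan and Matn3 differed by more than 2 on the log2 scale before induction. By its RefSeq feature the Sox5 difference was 1.20, opposite in sign. The calls of Matn3 and Chad were lost without any 1 of several arrays.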

How the results depend on the processing

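No paired analysis was run. The array titles are numbered in the same order of groups for the first and the second arrays. No source used here says whether this numbering ties arrays of different groups, and no term for it entered the fit. Of single gene differences under the alternatives, 1741 kept direction and side of the threshold, 71 lost and 25 gained a call, 8 moved and 9 reversed. Acan in both inductions, Comp in TTF-ieSC and Sox6 in both inductions kept theirs in every alternative run. All 9 reversals were of Sox5, whose features disagree. By the mean of its features the differences were 0.62 (TTF-ieSC against TTF), 0.53 (between inductions) and 0.09 (TTF-ieSC against immature Sertoli cells). By the RefSeq feature they were 1.82, 1.20 and 0.75, with 0.62 in MEF-ieSC against MEF, -1.11 in TTF against MEF and 0.66 in MEF-ieSC against immature Sertoli cells. No detection calls exist, so dim values have no known floor.

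A minimum log2 difference of 1 left fewer genes by construction. It left 5615 genes (5 of the 9) in TTF-ieSC against TTF, 4860 (5) in MEF-ieSC against MEF, 3344 (4) between inductions, 456 (0) between induced cells, 3208 (4) between fibroblasts, where counts are a description, 4041 from gonad to immature Sertoli cells, 3551 (2) from immature to mature, and 5230 and 5177 (5 for the latter) in TTF-ieSC and MEF-ieSC against immature Sertoli cells. A filter at the 75th percentile kept 5 of the 9 genes and called 5, 4, 4, 4, 2, 5 and 4 of them in TTF-ieSC against TTF, MEF-ieSC against MEF, between inductions, between fibroblasts, from gonad to immature cells, and in TTF-ieSC and MEF-ieSC against immature cells. For this filter and for leaving out single arrays, the shares of all genes called are not given here. Nothing about the 9 genes is therefore read from those counts. With only the groups compared in the fit, 4 of the 9 genes were called between inductions, where the share of all genes is likewise not given. Between induced cells 0 of the 9 and 6 of all genes were called in such a fit. Leaving out single arrays gave 5 to 9 called in MEF-ieSC against MEF (5 without MEF replicate 2), 1 to 3 between induced cells and 5 to 6 between inductions.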

Other observations

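Most cartilage collagens were higher in the induced cells than in cultured immature Sertoli cells. The induced cells were not tested against mature Sertoli cells. Of the 8, 7 were higher and 1 lower than in immature Sertoli cells in both TTF-ieSC (median 3.14) and MEF-ieSC (median 3.29). Of all genes, 37.8% were higher and 39.0% lower in TTF-ieSC, and 34.4% and 36.2% in MEF-ieSC. Col9a3, a chain of the collagen that decorates cartilage fibrils, was 7.55 ± 0.21 higher in TTF-ieSC (adjusted p = 5.03e-09) and 7.59 ± 0.25 in MEF-ieSC (adjusted p = 2.52e-08). Its mean was 10.48 in gonad, 6.06 in immature and 6.42 in mature Sertoli cells, against 13.61 in TTF-ieSC. Col11a2 stood at 14.25 in TTF-ieSC and 14.68 in MEF-ieSC, and at 7.20 to 7.37 in the native groups. From gonad to immature Sertoli cells 2 of the 8 collagens rose and 5 fell (median -2.66), beside 32.6% and 37.9% of all genes. Col9a1 fell by 4.93 ± 0.38 over this step (adjusted p = 4.8e-06).

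Over the same native step 8 of the 13 aggrecanase and turnover genes rose and 5 fell (median 1.79), beside 32.6% and 37.9% of all genes. Adamts5 rose by 1.93 ± 0.27 (adjusted p = 0.000208) and then by 0.80 ± 0.27 to mature cells (adjusted p = 0.0254), while its difference in TTF-ieSC against immature Sertoli cells was -3.94 ± 0.27 (adjusted p = 1.53e-06). Has2 rose by 2.86 ± 0.08 from gonad to immature Sertoli cells (adjusted p = 1.36e-08).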
